A study of Mus musculus with 8 samples.

Results

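The genes described here are 8 cytokine genes of mouse lymph node cells: Ebi3, Il15, Il18, Il1rn, Tnf, Csf1, Il16 and Tgfb1. They were taken by symbol from a deposited table of 10412 genes, all 8 were present, and all 8 passed the filter on low counts that left 8616 genes to test. Polyadenylated RNA was measured by MARS-seq on bulk samples, which reads transcript 3′ ends and tags every molecule with a unique molecular identifier (UMI). CD45, CD11c and MHC-II were the sorting markers, and the source was the popliteal lymph node of C57BL/6 chimeras aged 16 weeks, 8 weeks after a transplant that the labels call BMT. Chimeras are labelled WT/WT (wild-type) or ICAM-1/2 DKO/WT, and the libraries are called WT and DKO here. ICAM-1 and ICAM-2, the proteins lost in the DKO, bind the leukocyte integrin LFA-1. Within each genotype 2 libraries came from untreated mice (resting) and 2 from mice that received 10 µg of anti-CD40 antibody in the footpad (activated), which makes 4 groups of 2 and 8 libraries. CD40 is an activating receptor of antigen-presenting cells. The labels do not say how many animals went into a library or which cells of the host remained, and they do not state separate animals for the libraries of a group, so the p-values rest on a spread between samples that may be technical.

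Cytokines carry signals between leukocytes, and antigen-presenting cells are a main source of them in lymph nodes. Ebi3 encodes a secreted, receptor-like subunit that pairs with the product of Il27 to form IL-27 or with that of Il12a to form IL-35. IL-15 is held on the surface by its own alpha receptor and shown to NK and CD8 T cells. IL-18, a member of the IL-1 family, is made as a precursor that caspase-1 cleaves, and Il1rn encodes the antagonist that occupies the IL-1 receptor without signalling. TNF is shed from the membrane by the protease ADAM17, CSF-1 is the growth factor of macrophages, IL-16 is a ligand of CD4 cut from a precursor, and TGF-β1, an inhibitory cytokine, is stored in a latent form.

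By GENCODE M21 on GRCm38, the assembly called mm10 in the submitters' notes, Ebi3 (ENSMUSG00000003206.7) lies at chr17:55952640-55957022 and Tnf (ENSMUSG00000024401.14) at chr17:35199381-35202007. Il15 (ENSMUSG00000031712.10) lies at chr8:82331632-82403222, Il18 (ENSMUSG00000039217.13) at chr9:50554827-50581840 and Il1rn (ENSMUSG00000026981.15) at chr2:24336853-24351494. Csf1 (ENSMUSG00000014599.10) lies at chr3:107741048-107760469, Il16 (ENSMUSG00000001741.12) at chr7:83642825-83745726 and Tgfb1 (ENSMUSG00000002603.15) at chr7:25687002-25705077. Il16 overlaps the pseudogene Phgdh-ps1 on its own strand, which is absent from the table. Ebi3, Il18 and Il16 each overlap a gene annotated on the opposite strand. Of those neighbours Stard5, which overlaps Il16, is in the table with 5 to 29 UMIs per library. The sources used here give no strand setting for the counting. Reads from the stretches where these 3 members overlap their neighbours therefore cannot be told apart.

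Promoters are printed for 4 members, each with a motif match in the window shown, to set their letters beside the values that follow. Of these members 3 rose with activation (Ebi3, Il1rn, Csf1) and 1 fell (Tgfb1). Each window runs from 250 bases before to 50 bases after the RefSeq start (GRCm38.p6), 5′ to 3′ on the strand of the gene. The windows are chr17:55952373-55952672 (plus strand) for Ebi3, chr2:24336610-24336909 (plus strand) for the first of 3 starts of Il1rn, chr3:107760420-107760719 (minus strand) for Csf1 and chr7:25686752-25687051 (plus strand) for Tgfb1. Capitals mark matches to the NF-kB consensus in Ebi3, Csf1 and Tgfb1 and to the AP-1 motif in Il1rn.
Ebi3: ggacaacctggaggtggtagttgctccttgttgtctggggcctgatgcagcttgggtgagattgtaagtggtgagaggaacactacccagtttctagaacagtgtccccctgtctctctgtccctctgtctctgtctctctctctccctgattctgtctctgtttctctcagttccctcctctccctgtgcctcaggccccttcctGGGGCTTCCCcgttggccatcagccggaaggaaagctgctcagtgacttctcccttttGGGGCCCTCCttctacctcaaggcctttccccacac
Il1rn: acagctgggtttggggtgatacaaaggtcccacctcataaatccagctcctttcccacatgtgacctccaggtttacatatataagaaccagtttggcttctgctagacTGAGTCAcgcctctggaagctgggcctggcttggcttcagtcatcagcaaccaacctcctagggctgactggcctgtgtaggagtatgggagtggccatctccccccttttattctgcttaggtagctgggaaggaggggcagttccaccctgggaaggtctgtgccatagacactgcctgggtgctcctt
Csf1: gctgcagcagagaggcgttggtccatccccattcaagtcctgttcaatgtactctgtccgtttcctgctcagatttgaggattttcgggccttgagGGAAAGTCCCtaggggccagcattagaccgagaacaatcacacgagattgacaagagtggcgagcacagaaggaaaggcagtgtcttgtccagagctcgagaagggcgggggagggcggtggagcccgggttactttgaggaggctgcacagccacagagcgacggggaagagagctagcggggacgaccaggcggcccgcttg
Tgfb1: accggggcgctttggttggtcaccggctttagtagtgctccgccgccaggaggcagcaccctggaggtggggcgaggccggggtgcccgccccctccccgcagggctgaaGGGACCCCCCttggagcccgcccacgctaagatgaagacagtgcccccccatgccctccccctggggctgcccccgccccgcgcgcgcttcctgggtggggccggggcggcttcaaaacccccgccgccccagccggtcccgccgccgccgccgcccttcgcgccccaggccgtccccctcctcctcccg

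Both strands of the RefSeq windows were searched for 4 motifs, and 7 of the 8 members (all but Il15) had a window, 11 windows in all. The windows of Tnf and Il18, which both rose, matched none of the 4, nor did the other starts of Il1rn and 1 start of Il16. The NF-kB consensus was found in 4 of the 11 windows, those of Ebi3, Csf1, Tgfb1 and 1 start of Il16, and in 8.46% of all 32851 windows. In Ebi3 it stood at −44 to −35 (GGGGCTTCCC, matching on both strands) and at 15 to 24 (GGGGCCCTCC), counted from the start. The AP-1 motif TGANTCA was found in the window of Il1rn shown (TGAGTCA, at −141 to −135) and at another start of Il16 (TGACTCA), 2 of 11 windows against 7.81% of all. The interferon-stimulated response element (3.44% of all windows) and the gamma-activated site TTCNNNGAA (8.3%) matched 0 of the 11. The NF-kB matches were in windows of genes that rose and of genes that fell, and a match is a description of letters, not a site.

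The libraries held from 401984 to 1294777 UMIs. Levels are given as CPM, UMI counts relative to library size as scaled by the trimmed mean of M values (TMM), and 3 UMIs, taken as the floor, equal 2.11 to 7.16 CPM depending on the library. Icam1, a targeted gene, was at 123 to 432 CPM in WT and 9.49 to 38.5 CPM in DKO libraries. Icam2 stood at 0.06 ± 0.19 (log2, DKO over WT, edgeR adjusted p = 0.995). The sources used here do not give the deleted part of Icam2 or the place of its reads, so its level does not check the labels. Of the sorting markers, the MHC-II gene H2-Aa was at 10096 to 14040 CPM and Itgax, which encodes CD11c, at 16.1 to 43.0 CPM. The 13 classical DC markers in the table summed to 652 to 1680 CPM. Within that list several lineage genes were few in UMIs, with 0 to 8 per library for Zbtb46 and 0 to 8 for Xcr1. Cd209a held 0 to 9, Cadm1 0 to 12 and Flt3 3 to 44. Clec10a held 4 to 32, Sirpa 6 to 37, Batf3 16 to 74 and Itgae 21 to 107 UMIs. Others that mature DCs express, some of which other leukocytes express too, held more, with 62 to 420 UMIs for Ccr7, 62 to 490 for Ccl22, 49 to 195 for Fscn1 and 39 to 161 for Irf4. In the same libraries 16 B cell markers summed to 8557 to 12675 CPM. The labels call the resting cells classical DCs and the activated cells DCs. Several lineage genes had few UMIs and summed B cell markers were higher than those of classical DCs, beside counted maturation genes. The label was therefore met only in part, and the libraries are called sorted lymph node cells.

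**Figure D1:**
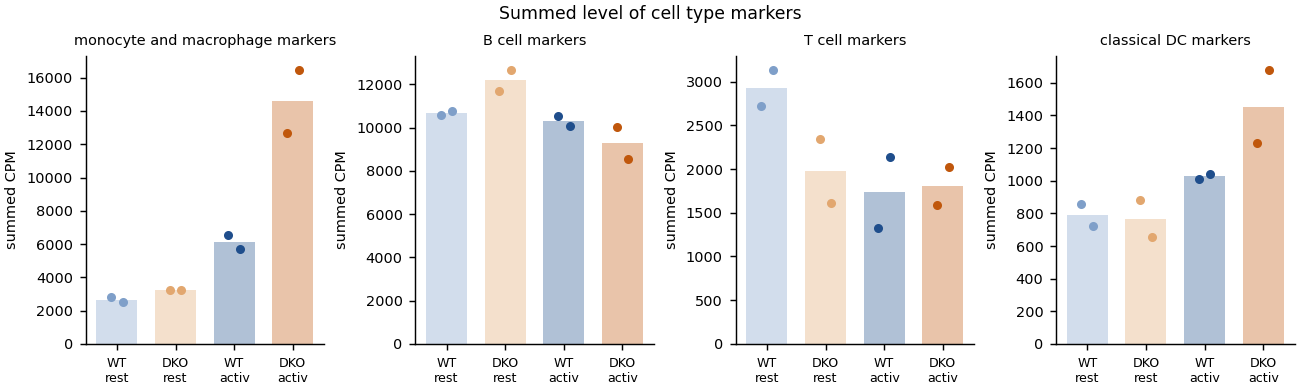
Summed CPM of fixed marker lists in each library (points) with the group mean (bars), for 20 monocyte and macrophage, 16 B cell, 13 T cell and 13 classical DC genes of the table. Monocyte and macrophage markers summed to 2510 to 3258 CPM in resting and 5729 to 16472 CPM in activated libraries.

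Activation moved the cytokine genes in both directions. Averaged over both genotypes, Ebi3, Il15, Il18, Il1rn, Tnf and Csf1 rose and Il16 and Tgfb1 fell, 8 of 8 members called by edgeR's quasi-likelihood test at a Benjamini-Hochberg adjusted p under 0.05. The share called among all tested genes was 29.7%, with 16.3% higher and 13.4% lower. Levels of activated and resting libraries did not overlap, 4 against 4, for 7 of 8 members, and for 27.9% of all genes (14.9% higher, 13% lower). Il18 was the exception. Within a genotype, 2 against 2, all 8 members were without overlap, as were 59.3% of all genes in WT (29.3% higher, 29.9% lower) and 54% in DKO (27.9% higher, 26.1% lower). The median change of the members was 1.20 on the log2 scale, against −0.01 over all genes. The members were chosen with earlier results of these data known, so these counts describe them and support nothing further. In bulk libraries fewer cells of a type and less RNA per cell cannot be told apart.

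**Figure D2:**
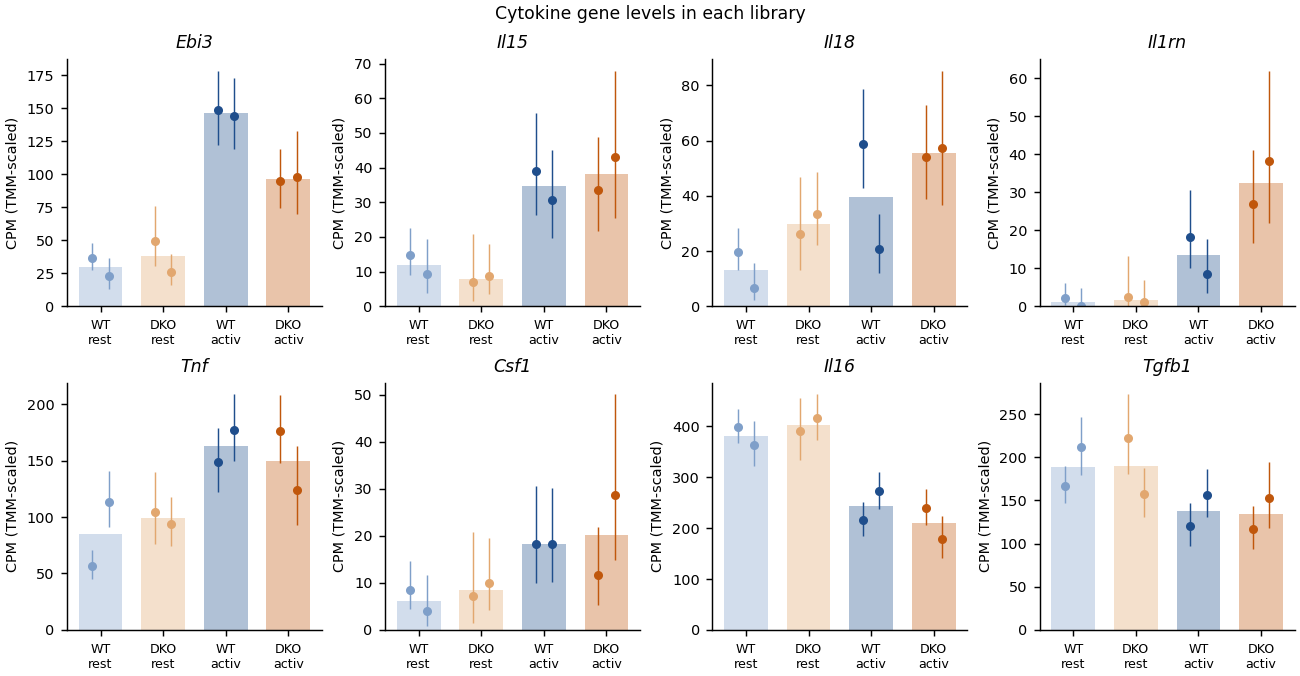
CPM of each gene in each library (points, with exact 95% Poisson intervals of the UMI count) and the group mean (bars, n = 2). The 4 activated libraries sit above the 4 resting ones for Ebi3, Il15, Il1rn, Tnf and Csf1 and below them for Il16 and Tgfb1, while Il18 overlaps.

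Ebi3 at rest stood at 36.5 and 22.7 CPM in WT and 49.8 and 26.0 CPM in DKO. After activation WT held 149 and 144 CPM and DKO 95.1 and 97.8 CPM. All 4 activated libraries lay above all 4 resting ones, and among activated libraries both WT values were above both DKO values. The mean change was 1.84 ± 0.23 (log2, SE), or 3.58-fold, with an edgeR adjusted p of 2.24e-07. In WT it was 2.24 ± 0.30 (adjusted p = 3.26e-06) and in DKO 1.44 ± 0.34 (adjusted p = 0.00361). The DKO call ended without DKO resting replicate 2, at 0.94 (adjusted p = 0.127), and held in the other 14 alternatives. Of the 2 partners of the Ebi3 product, Il12a had group means of 47.9 to 52.0 CPM at rest and 66.4 to 68.3 CPM after activation and was not called (0.44 ± 0.22, adjusted p = 0.134). Il27 was looked up and was absent from the deposited table, so no level can be given for it. The receptor genes of IL-27, Il27ra (−0.34 ± 0.17, adjusted p = 0.128) and Il6st (0.04 ± 0.35, adjusted p = 0.945), were not called.

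Il15 was at 14.8 and 9.36 CPM in WT resting, 7.11 and 8.66 in DKO resting, 39.1 and 30.6 CPM in WT activated and 33.4 and 43.0 CPM in DKO activated libraries. The counts behind these levels were small, from 3 to 30 UMIs, and every activated library lay above every resting one. Il15 rose by 1.82 ± 0.36 on average (3.54-fold, adjusted p = 2.46e-04), in WT by 1.46 ± 0.46 (adjusted p = 0.0288) and in DKO by 2.19 ± 0.56 (adjusted p = 0.00649). The WT call was lost when any WT library was left out: at 1.86 and 1.22 without resting replicate 1 and 2, and at 1.28 and 1.63 without activated replicate 1 and 2, with adjusted p from 0.0876 to 0.224. The DKO call was lost in limma-voom (adjusted p = 0.0564) and without both libraries of lowest depth (1.91, adjusted p = 0.0957). Il15ra, the subunit that presents IL-15, went in WT from 22.1 to 28.3 CPM and in DKO from 16.4 to 38.5 CPM and was not called (0.73 ± 0.33, adjusted p = 0.0899). The signalling subunits Il2rb (−0.19 ± 0.23, adjusted p = 0.584) and Il2rg (0.34 ± 0.14, adjusted p = 0.0603) were not called either.

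Il18 differed between libraries of a group. It was at 19.7 and 6.69 CPM in WT resting, 26.1 and 33.4 in DKO resting, 58.7 and 20.8 CPM in WT activated and 54.0 and 57.3 CPM in DKO activated libraries. WT activated replicate 2 lay below both DKO resting libraries. The mean rise was 1.15 ± 0.33 (2.22-fold, adjusted p = 0.00782), and in WT it was 1.44 ± 0.47 (adjusted p = 0.0346). In DKO the difference was 0.86 ± 0.46 with a 95% interval of −0.07 to 1.80 and was not called (adjusted p = 0.213). The mean call was lost without WT resting replicate 2 (0.91, adjusted p = 0.0505), without WT activated replicate 1 (0.70, adjusted p = 0.190) and without both libraries of lowest depth (1.04, adjusted p = 0.0577). The WT call ended without the same 2 libraries, at 0.99 and 0.53, in DESeq2 (adjusted p = 0.0774) and in limma-voom (adjusted p = 0.0549).

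Genes around IL-18 changed as well. Il18bp, which encodes a secreted protein that binds and neutralises IL-18, rose by 1.98 ± 0.44 (adjusted p = 8.76e-04), in WT from 12.8 to 26.8 CPM and in DKO from 5.41 to 42.7 CPM. The receptor genes fell, Il18r1 by 1.33 ± 0.28 (adjusted p = 4.27e-04) and Il18rap by 1.14 ± 0.35 (adjusted p = 0.0144). Among genes of the machinery that cleaves IL-18, the adaptor gene Pycard rose by 0.83 ± 0.16 (adjusted p = 1.47e-04) and Casp1 by 0.95 ± 0.27 (adjusted p = 0.00705). The Casp1 call ended without DKO activated replicate 1 (0.37, adjusted p = 0.395) and without DKO resting replicate 1 (0.73, adjusted p = 0.0528). That of Il18rap ended without DKO resting replicate 1 (−0.91) or DKO activated replicate 2 (−0.93), and also without both libraries of lowest depth (−0.69).

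Il1rn was nearly without UMIs at rest. WT resting libraries held 3 and 0 UMIs and DKO resting libraries 1 each, whereas WT activated libraries held 14 and 7 and DKO activated libraries 21 and 16. In CPM this was 18.2 and 8.56 in WT activated and 27.0 and 38.2 in DKO activated libraries, and each lay above all resting values, which ran from 0 to 2.37 CPM. From summed, depth-scaled counts the ratio of activated to resting was 9.59 in WT (exact 95% counting interval 2.86 to 50.2) and 19.0 in DKO (4.90 to 163). The edgeR change was 3.66 ± 0.66 on average (adjusted p = 7.72e-05), 3.16 ± 0.91 in WT (adjusted p = 0.0167) and 4.15 ± 0.95 in DKO (adjusted p = 0.00244). The WT call was lost without WT resting replicate 2 (2.56, adjusted p = 0.118) or WT activated replicate 1 (2.54, adjusted p = 0.211), and the DKO call without DKO resting replicate 2 (3.65, adjusted p = 0.0579) or both libraries of lowest depth (4.28, adjusted p = 0.0602). Il1r1, the receptor gene that the antagonist and its agonists share (0.17 ± 0.54, adjusted p = 0.851), was not called. The decoy receptor gene Il1r2 (0.08 ± 0.44, adjusted p = 0.918) was not called either. Il1r1 held only 4 to 13 UMIs per library. The value of Il1r2 averages opposite directions. Its group means were 35.2 (WT resting), 14.3 (WT activated), 7.99 (DKO resting) and 27.9 CPM (DKO activated), and the DKO groups overlapped. For no receptor gene was the change called different between genotypes.

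Tnf was at 56.9 and 114 CPM in WT resting, 104 and 94.1 in DKO resting, 149 and 177 CPM in WT activated and 176 and 124 CPM in DKO activated libraries. The highest resting library, at 114 CPM, lay just under the lowest activated one, at 124 CPM. Tnf rose by 0.81 ± 0.20 on average (1.75-fold, adjusted p = 0.00218) and by 0.99 ± 0.27 in WT (adjusted p = 0.0119). In DKO it stood at 0.63 ± 0.29, with an interval of 0.05 to 1.22 before adjustment, and was not called (adjusted p = 0.138). The WT call was lost without WT resting replicate 1 (0.50, adjusted p = 0.400) or WT activated replicate 2 (0.85, adjusted p = 0.146). Its receptor genes Tnfrsf1a (−0.18 ± 0.29, adjusted p = 0.688) and Tnfrsf1b (−0.46 ± 0.26, adjusted p = 0.183) and the sheddase gene Adam17 (0.33 ± 0.18, adjusted p = 0.174) were not called. The value of Tnfrsf1a averages opposite directions, with group means of 41.6 (WT resting), 19.6 (WT activated), 30.9 (DKO resting) and 52.6 CPM (DKO activated). Rhbdf2, which encodes the partner that brings ADAM17 to the cell surface, fell by 1.94 ± 0.36 (adjusted p = 1.06e-04). Nfkbia, an inhibitor of NF-kB, rose by 0.87 ± 0.14 (adjusted p = 1.39e-05), as did Tnfaip3, another feedback gene, by 1.11 ± 0.23 (adjusted p = 3.74e-04). Birc3, an NF-kB target in the same list, was not called (−0.19 ± 0.16, adjusted p = 0.417).

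Csf1 was low in each library, with 3 to 15 UMIs. It was at 8.43 and 4.01 CPM in WT resting, 7.11 and 9.90 in DKO resting, 18.2 and 18.3 CPM in WT activated and 11.6 and 28.6 CPM in DKO activated libraries. The activated libraries lay above the resting ones by as little as 11.6 against 9.90 CPM, values whose counting intervals of 5.29 to 22.0 and 4.28 to 19.5 CPM overlap. The mean change was 1.26 ± 0.49 with an adjusted p of 0.0497, and it was lost in 13 of 14 alternatives, at 0.81 to 1.59 over the 14 and with adjusted p from 0.0232 to 0.305. Among them were the fits without each library but DKO activated replicate 1. Neither WT (1.44 ± 0.65, adjusted p = 0.141) nor DKO (1.07 ± 0.72, adjusted p = 0.342) was called alone. Csf1r, its receptor and a macrophage gene, rose by 1.78 ± 0.21 (adjusted p = 8.07e-08), in WT from 37.9 to 120 CPM and in DKO from 65.2 to 254 CPM.

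Il16 at rest stood at 399 and 364 CPM in WT and 391 and 416 CPM in DKO. After activation WT held 216 and 273 CPM and DKO 240 and 179 CPM. The resting values lay close together and all above the activated ones, and no library held fewer than 75 UMIs of it. Il16 fell by 0.79 ± 0.15 on average (adjusted p = 1.29e-04), in WT by 0.64 ± 0.20 (adjusted p = 0.0295) and in DKO by 0.93 ± 0.21 (adjusted p = 0.00271). The mean held in all 14 alternatives, at −0.91 to −0.70. Alone, the WT call was lost without any of the 4 WT libraries, at −0.59 and −0.72 without resting replicate 1 and 2 and at −0.49 and −0.82 without activated replicate 1 and 2. The DKO call was lost without DKO activated replicate 2 (−0.75, adjusted p = 0.0522) and without both libraries of lowest depth (−0.81, adjusted p = 0.0530). The receptor gene Cd4 fell by 0.78 ± 0.21 (adjusted p = 0.00529), a call that ended without WT activated replicate 1 (−0.60, adjusted p = 0.0555) or both libraries of lowest depth. Cd9, described as another receptor of IL-16, stood at 0.74 ± 0.26 (adjusted p = 0.0327), a call lost in 7 of 14 alternatives, at 0.44 to 0.77. They were DESeq2, the fit without both libraries of lowest depth, and those that left out WT resting replicate 2, either WT activated library, DKO resting replicate 1 or DKO activated replicate 2.

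Tgfb1 was at 167 and 211 CPM in WT resting, 223 and 157 in DKO resting, 120 and 156 CPM in WT activated and 117 and 153 CPM in DKO activated libraries. The groups touch, with the lowest resting library at 157 CPM and the highest activated one at 156 CPM. The mean fall was 0.47 ± 0.17 (adjusted p = 0.0407). It was not called in WT (−0.44 ± 0.24, adjusted p = 0.224) or in DKO (−0.49 ± 0.25, adjusted p = 0.198) alone. Its call ended in 6 of 14 alternatives, at −0.40 without WT resting replicate 2, −0.36 without DKO resting replicate 1, −0.38 without WT activated replicate 1, −0.36 without DKO activated replicate 1, −0.48 in DESeq2 and −0.45 without both libraries of lowest depth. Of the receptor genes, Tgfbr1 was not called (−0.72 ± 0.29, adjusted p = 0.0604) and Tgfbr2 fell by 0.69 ± 0.18 (adjusted p = 0.00355). Further along the pathway the inhibitory Smad7 fell by 1.58 ± 0.29 (adjusted p = 7.93e-05) and Ski, a corepressor of SMAD proteins, by 1.67 ± 0.32 (adjusted p = 1.80e-04). Smad4 was called lower (−0.57 ± 0.21, adjusted p = 0.0360), a call that ended in 8 of 14 alternatives, namely DESeq2 (−0.58), leaving out both libraries of lowest depth (−0.56) and leaving out in turn WT resting replicate 1 (−0.59) or 2 (−0.59), WT activated replicate 1 (−0.52) or 2 (−0.63), DKO resting replicate 2 (−0.53) or DKO activated replicate 2 (−0.51). Its list mates Smad2 (−0.15 ± 0.27), Smad3 (−0.73 ± 0.38) and Skil (−0.58 ± 0.26) were not called, with adjusted p of 0.730, 0.144 and 0.0945. Nrros, whose product anchors latent TGF-β1 on myeloid cells, stood at −0.49 ± 0.16 (adjusted p = 0.0166) and was no longer called without WT resting replicate 1 (−0.45) or either of WT activated replicates 1 and 2 (−0.49 each), without DKO resting replicate 1 (−0.41) and without both libraries of lowest depth (−0.37).

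**Figure D3:**
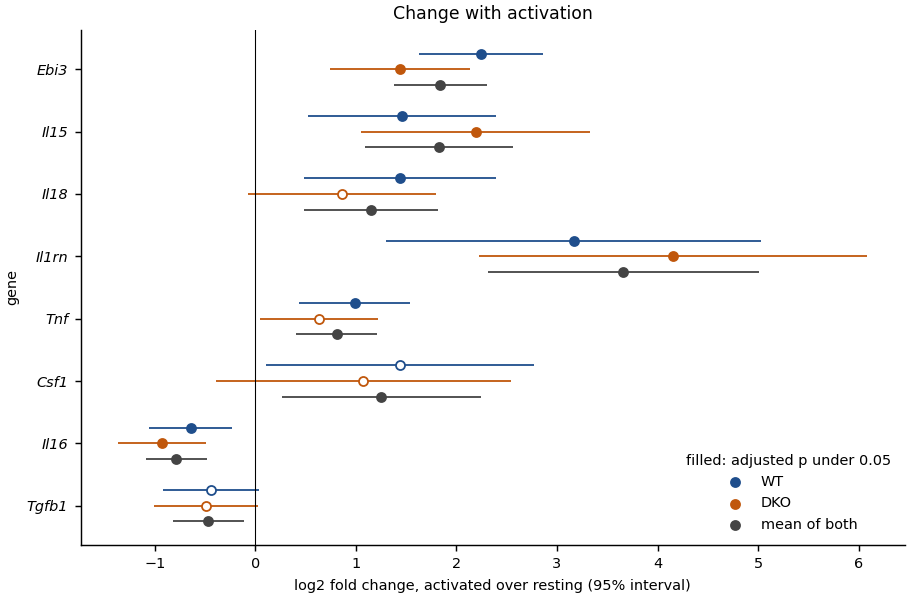
Log2 fold change of activated over resting libraries for WT, DKO and their mean, with 95% intervals from the edgeR fit before adjustment (filled points have an adjusted p under 0.05). Ebi3, Il15, Il1rn and Il16 are filled in all 3, Il18 and Tnf in WT and the mean, and Csf1 and Tgfb1 in the mean.

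Taken by genotype, 5 members were called higher and 1 lower in WT, where 14.4% of all genes were called, 8.44% higher and 5.92% lower. In DKO 3 were called higher and 1 lower, against 9.02% and 6.33% of all genes, 15.3% in all. The WT count of 6 fell to 2 or 3 without any single WT library, and to 3 in DESeq2, which gave no adjusted p for 3 members. The DKO count of 4 became 2 when DKO resting replicate 2 was left out and 1 without both libraries of lowest depth. In the authors' deposited table the WT log2 changes were 1.96 for Ebi3 (adjusted p = 1.79e-07), 0.86 for Tnf (adjusted p = 0.0446) and −0.60 for Il16 (adjusted p = 0.0429). For Il15 and Il18 the authors' deposited table gives 1.06 and 1.05 in WT with adjusted p of 0.0978 and 0.0980. In DKO the authors' deposited table gives 1.16 for Ebi3 (adjusted p = 0.0118), 1.39 for Il15 (adjusted p = 0.0226), 1.90 for Il1rn (adjusted p = 0.00131) and −0.90 for Il16 (adjusted p = 0.00123). For the other members in DKO the authors' deposited table gives 0.63 for Il18 (adjusted p = 0.408) and 0.52 for Tnf (adjusted p = 0.327). Tgfb1 is there at −0.47 (adjusted p = 0.312) and Csf1 at 0.61 (adjusted p = 0.486). For Il1rn and Csf1 in WT the authors' deposited table gives 1.32 and 0.83 without an adjusted p, and for Tgfb1 −0.40 (adjusted p = 0.395). The deposited changes of Il1rn were smaller than those of the edgeR fit (3.16 in WT, 4.15 in DKO), and the cause was not tested.

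The levels over the 4 groups were not ordered alike. Il18, Il1rn and Csf1 had the order WT resting, DKO resting, WT activated, DKO activated from low to high, with means of 13.2, 29.8, 39.7 and 55.6 CPM for Il18. Neighbours in that order overlapped for Csf1 within each state, for Il18 between DKO resting and WT activated and between both activated groups, and for Il1rn between both resting groups. Ebi3 and Tnf had their highest mean in WT activated libraries, at 146 ± 3.06 CPM for Ebi3 (SD, n = 2) against 96.5 ± 1.94 CPM in DKO activated. The order of Il15 from low to high was DKO resting, WT resting, WT activated and DKO activated, and only the activated groups overlapped. Il16 and Tgfb1 had the same order from high to low, DKO resting, WT resting, WT activated and DKO activated, and both pairs of neighbours of the same state overlapped.

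Monocyte and macrophage markers moved with activation in the same libraries. Of 18 tested, 16 were called higher and 1 lower in the mean of both genotypes, and their summed level ran from 2510 to 2809 CPM in WT resting, 3242 to 3258 CPM in DKO resting, 5729 to 6546 CPM in WT activated and 12685 to 16472 CPM in DKO activated libraries. Of the 6 rising members, Il18, Il1rn and Csf1 had the group order of these sums, and Ebi3, Tnf and Il15 did not. The sums lean on few genes: in DKO activated libraries Lyz2 (7166 CPM) and Apoe (3894 CPM) held most of the mean of 14578 CPM. Not every marker of the list had the order of the sums. At most 2 of the 20 markers in the table were at 0 in a library. T cell markers summed to 2720 to 3134 CPM in WT resting, 1608 to 2338 CPM in DKO resting, 1330 to 2135 CPM in WT activated and 1589 to 2026 CPM in DKO activated libraries, with 6 of 13 called lower and 1 higher. Of 15 B cell markers 8 were called lower and 4 higher. Classical DC markers summed to 652 to 882 CPM in resting and 1013 to 1680 CPM in activated libraries, with 4 of 9 tested called higher and 2 lower. That rise leans on Ccl22, with group means of 95.6 (WT resting), 130 (DKO resting), 431 (WT activated) and 768 CPM (DKO activated). Ccr7, of the same list, had lower means after activation, at 280, 264, 122 and 131 CPM in the same order. The sums therefore do not show a rise of classical DC markers in general. Plasmacytoid DC markers summed to 1657 to 2132 CPM at rest and 2918 to 3959 CPM after activation, with 4 of 8 called higher and 1 lower. That sum leans on Ly6d, with means of 1132, 1470, 2028 and 1974 CPM in the same order. Bst2 (167, 169, 542 and 720 CPM) and Irf7 (91.3, 79.5, 354 and 448 CPM) also had higher means after activation. Pld4 had lower ones, at 330, 314, 164 and 170 CPM. This sum does not show a rise of plasmacytoid DC markers in general either. The part of any of these cell types in the changes of the cytokine genes was not tested.

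Between genotypes no member was called. At rest, after activation and in the mean of both states edgeR called 0 of 8 members, against 0.162%, 0.174% and 0.209% of all genes. Higher in DKO were 0.058% at rest, 0.139% after activation and 0.139% in the mean, and lower were 0.104%, 0.0348% and 0.0696%. By DESeq2 and limma-voom the count was also 0. In each of these contrasts 1 member had an unadjusted p under 0.05, Il18 at rest, Ebi3 after activation and Il18 in the mean. Over all 8616 tested genes 448, 424 and 487 had such a p, in the same order. Il18 was 1.07 ± 0.50 higher in DKO at rest (interval 0.05 to 2.08, adjusted p = 0.921) and 0.78 ± 0.33 higher in the mean (interval 0.11 to 1.45, adjusted p = 0.788). Activated DKO libraries stood 0.60 ± 0.28 below activated WT libraries for Ebi3 (95% interval −1.18 to −0.03, adjusted p = 0.970). Il1rn was 1.25 ± 0.64 higher in DKO after activation, with an interval of −0.06 to 2.57 (adjusted p = 0.9999). Libraries of the genotypes did not overlap for 2 of 8 members at rest (Il15 lower, Il18 higher in DKO) against 33.8% of all genes (16.4% higher, 17.4% lower), and for 2 of 8 after activation (Ebi3 lower, Il1rn higher) against 32.8% (16.1% higher, 16.7% lower). The narrowest intervals were those of Il16, from −0.33 to 0.49 at rest and −0.64 to 0.23 after activation. A difference of 2-fold, 1 on the log2 scale, in either direction lay outside the intervals of Il16, Tgfb1 and Tnf in both states, while the intervals of Il1rn and Csf1 at rest reached past it on both sides.

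**Figure D4:**
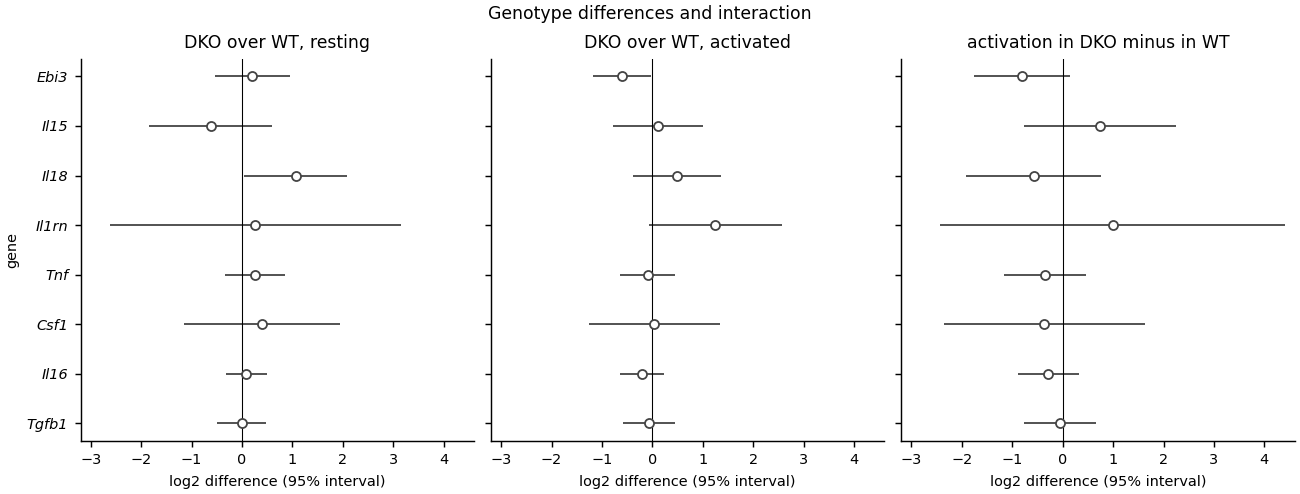
Log2 differences of DKO over WT at rest and after activation, and the activation change in DKO minus that in WT, with 95% intervals before adjustment. No gene was called, and the interval of Il1rn at rest, from −2.63 to 3.15, is the widest of the genotype differences.

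The change with activation did not differ detectably between genotypes. In the interaction edgeR called 0 of 8 members and 0% of all genes, and DESeq2 and limma-voom called 0 members. An unadjusted p under 0.05 was found in edgeR for 0 members, against 397 of 8616 tested genes. Ebi3 had the lowest p, with a rise smaller by 0.80 ± 0.46 in DKO (interval −1.75 to 0.14, adjusted p = 0.997). Il15 went the other way at 0.73 ± 0.74 (interval −0.78 to 2.24), and Tgfb1 was nearest to 0 at −0.05 ± 0.35 (interval −0.76 to 0.65).

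Of the genes that surround the members, those of 4 lists were called in both directions with activation, as the mean of both genotypes, a contrast in which 29.7% of all genes were called (16.3% higher, 13.4% lower). Of 17 tested receptors and binding proteins 3 rose and 4 fell, with a median of −0.18 against −0.01 over all genes. The count of 7 was 4 without both libraries of lowest depth. Of 11 tested partners and processing genes 3 rose and 3 fell (median 0.33). Besides Casp1 and Pycard, the inflammatory caspase gene Casp4 rose by 0.90 ± 0.21 (adjusted p = 0.00157). Casp8, a protease of TNF receptor signalling, fell by 0.56 ± 0.17 (adjusted p = 0.0139), a call that ended without WT resting replicate 2 (−0.50), DKO resting replicate 2 (−0.47) or WT activated replicate 1 (−0.50). Of 31 signalling genes 6 rose and 5 fell, with a median of 0.00, and these 11 are close to the share over all genes. Stat5b, which acts downstream of IL-15, fell by 1.30 ± 0.26 (adjusted p = 2.31e-04). The signalling count of 11 was 7 in DESeq2, without WT resting replicate 1 and without WT activated replicate 2.

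**Figure D5:**
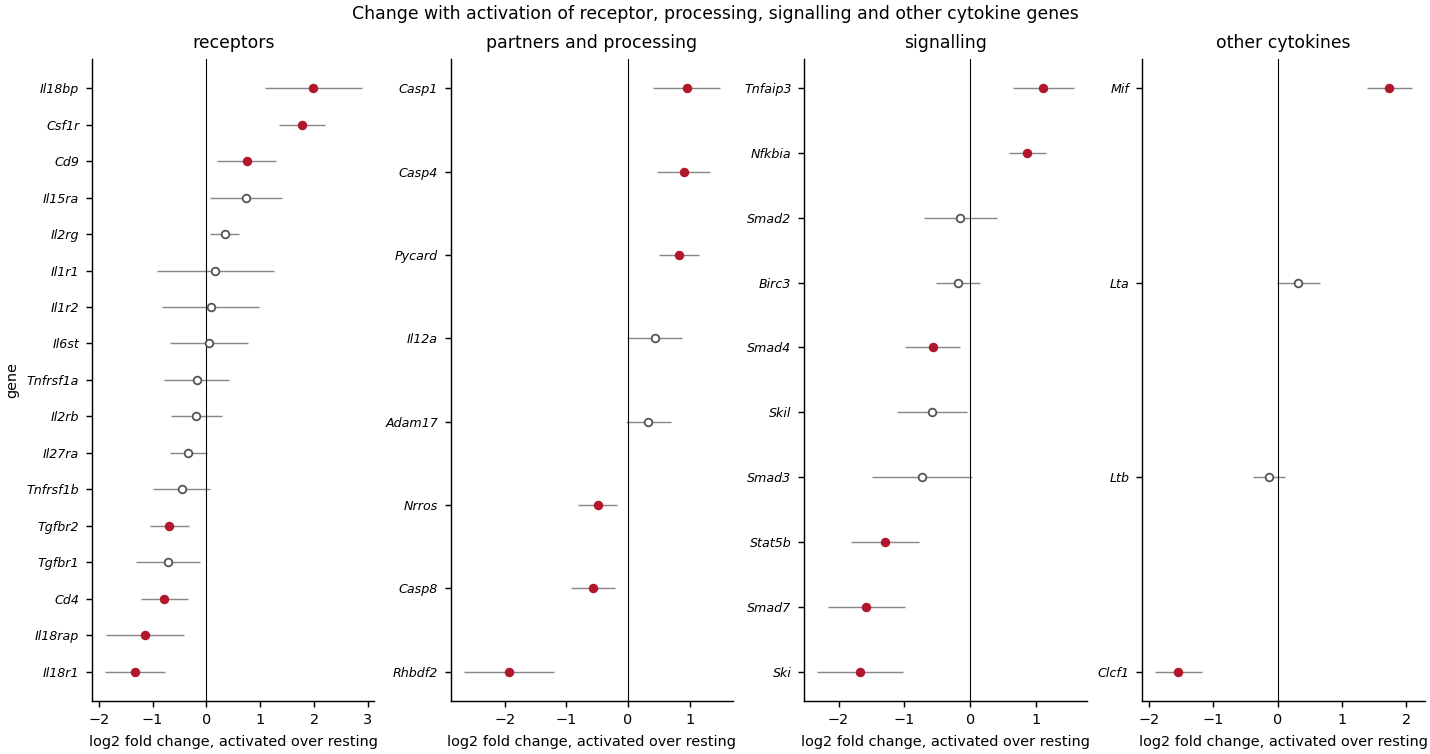
Log2 fold change of activated over resting libraries, mean of both genotypes, with 95% intervals before adjustment, for the tested genes of 4 lists that the text names (filled points have an adjusted p under 0.05). Called genes shown stand on both sides of 0 in each list, from Il18bp at 1.98 to Rhbdf2 at −1.94.

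Among other cytokine genes fewer passed the filter. Of 52 listed, 22 were in the table and 11 were tested, and 1 rose and 1 fell (median 0.06). Mif, a cytokine of macrophages and lymphocytes, rose by 1.74 ± 0.17 (adjusted p = 2.34e-09), in WT from 104 to 286 CPM and in DKO from 75.1 to 301 CPM on average. Clcf1, which belongs to the IL-6 family, fell by 1.54 ± 0.18 (adjusted p = 7.49e-08), in WT from 157 to 60.6 CPM and in DKO from 205 to 61.9 CPM. Lta and Ltb, relatives of Tnf in its family, were not called (0.32 ± 0.16, adjusted p = 0.142, and −0.13 ± 0.12, adjusted p = 0.440). Il1b, an agonist at the receptor that Il1rn blocks, and Il12b did not pass the filter, with group means of 1.86 to 13.3 CPM and 1.84 to 8.35 CPM.

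The tested genes most like each member were found by the root mean square difference between log2 CPM values centred over the 8 libraries, for candidates whose mean log2 CPM was at least 5. For Ebi3 they were Traf1 (0.24), Psme2b (0.32) and Adap1 (0.36), and for Il15 Mcm3 (0.14), Dbi (0.17) and Tuba1b (0.17). For Il1rn they were Nr1h3 (0.32), Ccl22 (0.35) and Lyz2 (0.35), and for Il18, the member with the poorest best match, Cmtm3 (0.39), Pja1 (0.44) and Spata24 (0.46). Il16 was closest to Sidt2 (0.08), Psen2 (0.10) and Rabgap1l (0.11), Tgfb1 to Pdlim7 (0.07), Rnf5 (0.09) and Rce1 (0.09), Tnf to Emc2 (0.15), Magoh (0.19) and Rpl9 (0.19), and Csf1 to Tmem242 (0.20), Cops5 (0.20) and Ube2f (0.21). Between members the smallest difference was that of Il16 and Tgfb1 (0.33), followed by Il15 and Csf1 (0.46) and Ebi3 and Il15 (0.48), and the largest that of Il16 and Il1rn (1.81). The points behind each value share the same 8 libraries and their depth.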

How the data were processed

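The submitters' processing notes name bcl2fastq 2.17.1.14 and cutadapt 1.8.3, then DESeq2, HTSeq and TopHat2, with mm10 as build. How UMIs were collapsed, the strand setting and the annotation were not stated in the sources used. The authors deposited a single table, and its raw UMI counts per gene, per the file headers, were the input of every test. The log2 fold changes and adjusted p-values the authors deposited are quoted only as theirs. A further 16 per-sample columns were not used. Every gene in the table reached 6 UMIs in some library.

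The filter on low counts was edgeR's filterByExpr with the groups (8616 genes tested, 1796 untested). Counts were TMM-scaled and modelled with edgeR 4.0.16 under R 4.3.3, using all 8 libraries and 1 coefficient per group (4 residual degrees of freedom). Quasi-likelihood F tests were adjusted by Benjamini-Hochberg over all tested genes. The standard error (SE) is the log2 change divided by the square root of F, and intervals are at 95% without adjustment. Intervals and floors of counts cover counting error only. The fit was tested on simulated counts. Members and gene lists were chosen with earlier results of these data known. Named genes are the 8 members, up to 6 called genes of each list by p, tested receptors, and the 3 genes most like each member; Il12a, Adam17, Lta, Ltb, Il1b, Il12b, Birc3, Skil and Smad2 to Smad4 were named after their values were seen. Alternatives were DESeq2 1.42.0, its size factors, 2 other filters, limma-voom (limma 3.58.1) with quality weights, fits restricted to the 4 libraries of a contrast, and each library left out. The fit without both libraries of lowest depth was added after seeing the data. A few genes of the lists are not reported here by name.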

Additional observations from a re-analysis of the deposited data

How the results depend on the processing

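No member's called change reversed under any alternative run. The count of members called with activation in the mean of both genotypes was 8 and ranged from 5 to 7 with single libraries left out, and it was 5 without both libraries of lowest depth, a setting chosen after seeing the data. In WT it was 6, ranged from 2 to 6 with single libraries left out and was 3 in DESeq2, which gave no adjusted p for Il15, Il1rn and Csf1. In DKO it was 4, ranged from 2 to 4 and was 1 without both libraries of lowest depth. In the genotype contrasts and the interaction it was 0 under every alternative run. Ebi3, Il15, Il16, Il1rn and Tnf kept their mean call in 14 of 14 alternatives, Il18 in 11, Tgfb1 in 8 and Csf1 in 1. Where a fit leaves a group with 1 library, that library is assumed to vary like the others, and the cause of lost calls was not tested.

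Over all genes, the count called in WT was 1237 and 1871 in limma-voom, and 504 to 1388 with single libraries left out. In DKO it was 1322, 862 in DESeq2, 553 without both libraries of lowest depth and 695 to 1192 with single libraries left out. For the genotypes at rest it was 14, 4 in DESeq2, 8 in limma-voom, 9 in the fit on the 4 libraries compared, 6 without both libraries of lowest depth and 3 to 13 with single libraries left out. After activation it was 15, 23 in limma-voom, 8 without both libraries of lowest depth and 6 to 36. In the mean it was 18, 11 without both and 7 to 14, and in the interaction 0, 2 without both and 0 to 2.

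No paired analysis was possible because the labels give the libraries no replicate numbers that groups share. Depth limits Il1rn, Csf1 and Il15 most, with resting libraries of 0 to 3, 3 to 12 and 3 to 21 UMIs.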
